A study of Homo sapiens with 6 samples.

Results

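The 8 genes APAF1, CASP2, CASP6, CASP9, CYCS, DIABLO, XIAP and BIRC2 encode parts of the mitochondrial route to apoptosis, and they were taken by symbol from the 26255 genes listed for every sample. RNA-seq had been performed on 22RV1 cells, a human castration-resistant prostate cancer (CRPC) cell line, grown in RPMI medium with fetal bovine serum. The cells were treated for 24 h with DMSO, the vehicle (3 samples), or with 10 nM bruceantin (BCT), a plant quassinoid (3 samples). The comparison asks which genes change their RNA level when these cells are given BCT. All 6 samples come from this 1 cell line and from medium that was not depleted of androgen, and the labels do not say whether replicates were separate cultures, so p-values measure only the spread between these samples.

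In the mitochondrial route, cytochrome c, the product of CYCS, leaves the space between the mitochondrial membranes and binds APAF1. APAF1 then assembles into the apoptosome, a ring-shaped platform on which the initiator caspase CASP9 becomes active and cleaves executioner caspases, the proteases that cut the proteins of the dying cell. XIAP binds and blocks CASP9 and some executioner caspases, and DIABLO (SMAC), released from mitochondria with cytochrome c, displaces XIAP. BIRC2 (cIAP1) belongs to the same inhibitor of apoptosis (IAP) family but works mainly as a ubiquitin ligase in TNF receptor and NF-kB signaling. CASP2 is an initiator caspase with a platform of its own, the PIDDosome, and of the 8 genes CASP6 alone encodes a caspase classed as an executioner. Caspase activity depends on cleavage and dimerization of the protein, which RNA levels do not show.

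The deposited values are FPKM, in which the fragments of a gene are divided by its transcript length and by the sequencing total of the sample, so levels below are per transcript length and can be set beside each other between genes, except where APAF1 is one of them, since the length used for its merged locus is not known. The files hold no read counts, but the steps between low values gave relative depths of 0.878 to 1 with DMSO and 1.05 to 1.13 with BCT. The summed FPKM of a sample was 1169649 to 1572321 with DMSO and 757534 to 799838 with BCT, and 1 gene, MIR6087, held 43.5% to 55.3% and 31.7% to 32.5% of it. Values were therefore used as deposited. A scaling to equal sums moved the median over all genes from -0.04 to 0.72 on the log2 scale, and a scaling to equal sums without that gene moved it to 0.34. The prostate luminal markers KRT8, KRT18, HOXB13, KLK2, KLK3, FOLH1 and TMPRSS2 were detected in every sample, with summed levels of 760.8 to 769.8 FPKM with DMSO and 1752 to 1935 FPKM with BCT. All 7 were above 1 FPKM in each DMSO sample and in BCT replicate 1, but only 6 were in BCT replicates 2 and 3. The sum therefore does not show the direction of each marker. Markers of leukocytes summed to at most 0.588 FPKM and those of endothelial cells to at most 0.051 FPKM. Those of fibroblasts (COL1A1, COL1A2, DCN and LUM) summed to 2.52 to 2.66 FPKM with DMSO and 5.83 to 6.97 FPKM with BCT, and their part in the results was not tested.

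BCT lowered the RNA of the apoptosome scaffold APAF1 and of the initiator caspase CASP2, and raised the RNA of the initiator caspase CASP9 and of the ubiquitin ligase BIRC2. APAF1 was 3.06-fold lower and CASP2 2.34-fold lower with BCT, while CASP9 was 2.5-fold higher and BIRC2 2.08-fold higher. CASP6, CYCS, DIABLO and XIAP had smaller differences that stayed inside the fold change threshold. In RNA from whole cultures, fewer cells that carry a transcript and less of it per cell cannot be told apart. Changes were tested with limma on log2(FPKM + 0.1), a scale that understates the change of low genes, among the 12729 genes that averaged 1 FPKM or more, and a gene was called when its log2 fold change passed 0.85 in either direction with a Benjamini-Hochberg adjusted p below 0.05. All 8 genes passed the filter on low values. By this rule 2 of the 8 were called lower, where 17.8% of all genes tested were, and 2 were called higher, where 13.9% were. All 8 passed the adjusted p alone, as did 82.1% of all genes tested, and in all 8 no BCT sample overlapped a DMSO sample, as in 85.3% of all genes tested. The median log2 fold change was -0.03 over the 8 genes and -0.04 over all genes. The 8 genes thus divided between both directions, at shares near those of a background in which most genes differed between the groups.

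The promoters of the 4 called genes are shown because these are the transcripts that moved past both thresholds, and they allow the start regions of the genes that went down and up to be set side by side. Each run is the 250 bases before the RefSeq start site on GRCh38.p14, read 5' to 3' on the gene's strand. Capitals mark a GC box (GGGCGG) or a CCAAT box (CCAAT) on either strand, so CCGCCC and ATTGG are the same motifs on the opposite strand. The windows are chr12:98645040-98645289 on the plus strand for APAF1, chr7:143288101-143288350 on the plus strand for CASP2, chr1:15524791-15525040 on the minus strand for CASP9 and chr11:102346964-102347213 on the plus strand for BIRC2.
APAF1: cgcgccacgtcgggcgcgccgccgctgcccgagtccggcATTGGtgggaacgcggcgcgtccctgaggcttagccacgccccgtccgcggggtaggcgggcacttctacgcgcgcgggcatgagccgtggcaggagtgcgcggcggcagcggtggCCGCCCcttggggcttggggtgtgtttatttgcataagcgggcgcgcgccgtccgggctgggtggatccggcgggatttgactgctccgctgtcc
CASP2: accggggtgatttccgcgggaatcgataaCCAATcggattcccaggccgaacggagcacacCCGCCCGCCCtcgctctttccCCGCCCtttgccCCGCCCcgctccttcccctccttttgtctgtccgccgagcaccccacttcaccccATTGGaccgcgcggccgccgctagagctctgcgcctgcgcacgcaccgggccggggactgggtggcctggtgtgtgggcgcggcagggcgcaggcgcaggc
CASP9: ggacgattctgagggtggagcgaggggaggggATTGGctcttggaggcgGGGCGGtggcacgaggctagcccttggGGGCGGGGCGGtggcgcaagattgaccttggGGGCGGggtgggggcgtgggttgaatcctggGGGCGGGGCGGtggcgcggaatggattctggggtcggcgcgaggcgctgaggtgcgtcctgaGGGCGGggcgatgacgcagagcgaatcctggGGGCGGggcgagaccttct
BIRC2: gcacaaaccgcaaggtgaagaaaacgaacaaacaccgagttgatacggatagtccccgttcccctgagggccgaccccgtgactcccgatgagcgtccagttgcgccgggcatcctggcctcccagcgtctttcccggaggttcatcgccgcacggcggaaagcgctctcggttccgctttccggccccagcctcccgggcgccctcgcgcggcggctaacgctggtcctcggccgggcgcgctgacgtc

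All 4 windows were rich in G and C, at 73.6% for APAF1, 71.2% for CASP2, 71.6% for CASP9 and 67.6% for BIRC2, against a median of 57.6% over 27305 windows of the same length. The CASP9 window held 8 GC boxes and 1 CCAAT box, and that of CASP2 held 4 GC boxes and 2 CCAAT boxes, with neighboring GC boxes overlapping in both. The APAF1 window held 1 of each, and the BIRC2 window had no match to either. GC boxes were present in 42.2% and CCAAT boxes in 33.0% of all windows. Further motifs, searched on both strands, were not in the window of any of the 8 genes: E2F sites (TTTGGCGC, TTTCCCGC or TTTCGCGC, in 2.36% of all windows), the cyclic AMP response element TGACGTCA (1.75%) and the AP-1 site TGACTCA (4.15%). The BIRC2 window ends in all but the last letter of TGACGTCA, and matches across a window edge were not searched. The start site used for CASP6 lies 6322 bases from the upstream end of its RefSeq gene. A gene called lower and a gene called higher thus both carried several GC boxes, and a match in these letters is no evidence of binding.

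APAF1, which forms the ring of the apoptosome, was at 6.53, 6.64 and 6.51 FPKM in DMSO replicates 1, 2 and 3. In BCT replicates 1, 2 and 3 it was at 2.32, 2.08 and 2.03 FPKM. The 3 BCT samples lay close together and all far below the lowest DMSO sample. The mean went from 6.56 ± 0.0681 to 2.15 ± 0.153 FPKM (SD, n = 3), a log2 fold change of -1.57 (SE 0.078, 95% CI -1.75 to -1.39) with a limma adjusted p of 9.5e-07. Of all genes tested, 5.55% had a lower log2 fold change than APAF1. Its level passed from percentile 33.9 to percentile 12.3 of the genes tested, places that rest on the unknown length of its locus. With equal sums its log2 fold change was -0.83, just inside the fold change threshold.

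The deposited coordinates place APAF1 on the plus strand of chromosome 12 from 99039078 to 100378432 (hg19), a span of 1339355 bases that is shared with ANKS1B, FAM71C and LOC101928937. The GENCODE gene model on this build ends at 99129211, so the deposited span covers a merged locus, as it does for the 8908 genes listed with the same span as another gene, and the length behind the FPKM of APAF1 is not known. APAF1 and ANKS1B lie on opposite strands and share 8977 of the 90144 bases of APAF1 in GENCODE. The library kit (TruSeq RNA v2) does not keep strand, so reads from the shared stretch cannot be assigned to either gene. ANKS1B was at 1.95 ± 0.174 FPKM with DMSO and 1.42 ± 0.203 FPKM with BCT (n = 3), with a log2 fold change of -0.44 (limma adjusted p = 0.018) that was not called and turned to 0.29 with equal sums. FAM71C was at or below 0.039 FPKM in every sample and LOC101928937 was listed at 0.

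CASP9, the caspase that the apoptosome activates, was at 5.52, 5.21 and 5.61 FPKM in DMSO replicates 1, 2 and 3. In BCT replicates 1, 2 and 3 it was at 12.2, 13.9 and 14.8 FPKM. Each BCT sample was above every DMSO sample, and the BCT samples spread more widely (CV 9.6%, against 3.91%). The mean rose from 5.45 ± 0.213 to 13.6 ± 1.31 FPKM (SD, n = 3), a log2 fold change of 1.303 (SE 0.079, 95% CI 1.12 to 1.49) with a limma adjusted p of 1.9e-06. By FPKM, CASP9 stood at rank 8 of the 8 genes with DMSO and at rank 4 with BCT, though its DMSO place below APAF1 rests on the unknown length of the latter. The scaffold APAF1 and the caspase it recruits therefore moved in opposite directions in the same samples. The gene is on the minus strand of chromosome 1 from 15817896 to 15851285 (hg19), overlapping no other listed gene.

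CYCS, the gene of cytochrome c, had the highest level of the 8 genes in both groups. It was at 113, 110.0 and 103 FPKM in DMSO replicates 1, 2 and 3, and at 89.9, 86.4 and 87.1 FPKM in BCT replicates 1, 2 and 3. The BCT samples were a little below the DMSO samples, without overlap. The mean was 109 ± 5.31 FPKM with DMSO and 87.8 ± 1.86 FPKM with BCT (SD, n = 3), with a log2 fold change of -0.31 (SE 0.052, 95% CI -0.43 to -0.19, limma adjusted p = 6.0e-04). This difference was not called, and its sign turned with scaling to equal sums (0.46) and to equal sums without the top gene (0.08). GENCODE lists 42 genes whose names start with CYCSP, pseudogenes of CYCS, and 1 of them (CYCSP52, listed at 0 in every sample) has a row in the files, so reads shared with near-identical copies make the level of CYCS uncertain. CYCS lies on the minus strand of chromosome 7 from 25158270 to 25164980 (hg19).

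CASP2, the initiator caspase of the PIDDosome, was at 17.6, 17.1 and 17.8 FPKM in DMSO replicates 1, 2 and 3. In BCT replicates 1, 2 and 3 it was at 8.16, 6.85 and 7.47 FPKM. Every BCT sample was below every DMSO sample. The mean fell from 17.5 ± 0.352 to 7.49 ± 0.654 FPKM (SD, n = 3), a log2 fold change of -1.22 (SE 0.071, 95% CI -1.38 to -1.06) with a limma adjusted p of 1.6e-06. The call was lost with equal sums (-0.46) and with equal sums without the top gene (-0.83), while the direction held. CASP2 is on the plus strand of chromosome 7 from 142985308 to 143004789 (hg19).

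CASP6, an executioner caspase known for cleaving lamin A, was at 19.7, 18.7 and 19.5 FPKM in DMSO replicates 1, 2 and 3. In BCT replicates 1, 2 and 3 it was at 13.5, 12.9 and 12.0 FPKM. The groups did not overlap, but the difference was smaller than that of CASP2 and APAF1. The mean was 19.3 ± 0.537 FPKM with DMSO and 12.8 ± 0.753 FPKM with BCT (SD, n = 3), with a log2 fold change of -0.59 (SE 0.06, 95% CI -0.73 to -0.45, limma adjusted p = 2.6e-05). It was not called, and with equal sums it turned to 0.17. CASP6 is on the minus strand of chromosome 4 from 110609785 to 110624629 (hg19).

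DIABLO, the mitochondrial antagonist of XIAP, was at 46.6, 46.6 and 44.9 FPKM in DMSO replicates 1, 2 and 3. In BCT replicates 1, 2 and 3 it was at 64.2, 72.5 and 68.2 FPKM. The BCT samples were all higher. The mean was 46.0 ± 0.99 FPKM with DMSO and 68.3 ± 4.17 FPKM with BCT (SD, n = 3), with a log2 fold change of 0.57 (SE 0.057, 95% CI 0.44 to 0.70, limma adjusted p = 2.4e-05), inside the fold change threshold. With equal sums (1.33) and equal sums without the top gene (0.95) it was called higher. DIABLO is on the minus strand of chromosome 12 from 122692209 to 122713339 (hg19), and LOC101593348 is listed with the same span. LOC101593348 went the other way, from 2.54 ± 0.209 to 1.23 ± 0.204 FPKM (n = 3, log2 fold change -0.99, limma adjusted p = 2.0e-04), and reads in a shared stretch cannot be told apart. Its call was lost with equal sums (-0.27) and with equal sums without the top gene (-0.63).

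XIAP, the IAP that binds CASP9 and some executioner caspases directly, had the smallest difference of the 8 genes in the values as deposited. With upper quartile and quantile scaling the difference of CYCS was smaller. With equal sums without the top gene those of CASP6 and CYCS were smaller, and with equal sums those of APAF1, CASP2, CASP6 and CYCS were. XIAP was at 9.26, 9.67 and 9.02 FPKM in DMSO replicates 1, 2 and 3, and at 10.2, 10.96 and 12.1 FPKM in BCT replicates 1, 2 and 3. The lowest BCT sample was just above the highest DMSO sample. The mean was 9.32 ± 0.332 FPKM with DMSO and 11.1 ± 0.925 FPKM with BCT (SD, n = 3), with a log2 fold change of 0.25 (SE 0.072, 95% CI 0.08 to 0.41, limma adjusted p = 0.012). It was not called as deposited and was called higher with equal sums (1.01). XIAP is on the plus strand of chromosome X from 122993662 to 123047829 (hg19).

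BIRC2 was at 18.2, 17.6 and 18.2 FPKM in DMSO replicates 1, 2 and 3. In BCT replicates 1, 2 and 3 it was at 34.4, 37.9 and 40.3 FPKM. All BCT samples were clearly above all DMSO samples. The mean rose from 18.0 ± 0.334 to 37.5 ± 2.98 FPKM (SD, n = 3), a log2 fold change of 1.05 (SE 0.065, 95% CI 0.903 to 1.203) with a limma adjusted p of 2.0e-06. BIRC2 and XIAP both carry the BIR domains of the IAP family, and BIRC2 was called higher where XIAP was not, a difference between the genes that was not tested. BIRC2 is on the plus strand of chromosome 11 from 102217913 to 102249401 (hg19), 7777 bases from its close relative BIRC3, which is described with the other IAP genes.

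**Figure D1:**
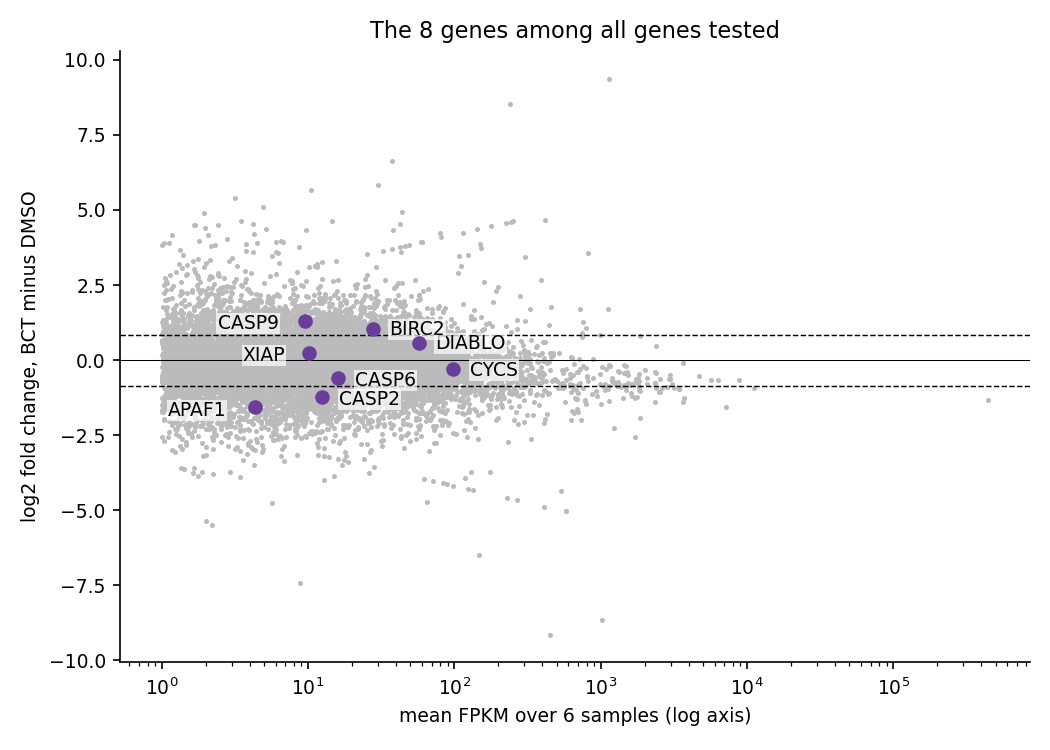
Log2 fold change (BCT minus DMSO) against mean FPKM over 6 samples (log axis) for the 12729 genes tested (gray), with the 8 genes in purple; dashed lines mark the fold change threshold of 0.85. CASP9 and BIRC2 lie above the upper line and APAF1 and CASP2 below the lower one, all inside the gray cloud; CASP6 and CYCS, drawn below 0, turned positive with equal sums.

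With DMSO, the levels ran from CYCS through DIABLO, CASP6, BIRC2, CASP2, XIAP and APAF1 down to CASP9. Neighbors in this order were separate in their ranges over 3 samples, except BIRC2 and CASP2. With BCT, the order was CYCS, DIABLO, BIRC2, CASP9, CASP6, XIAP, CASP2 and APAF1. Here CASP9 and CASP6 overlapped, and so did CASP6 and XIAP. The place of APAF1 in both orders rests on the unknown length of its locus. BCT thus left the mitochondrial proteins' transcripts at the top, and it exchanged the places of the initiators, with CASP9 above CASP2 where it had been below. Within a group the samples were close, with a CV of 1.04% to 4.88% with DMSO and 2.12% to 9.6% with BCT.

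Ratios of levels within a sample do not depend on any scaling by 1 factor per sample. The ratio of APAF1 to CASP9, scaffold to recruited caspase, was 1.18, 1.28 and 1.16 in DMSO replicates 1, 2 and 3 and 0.19, 0.15 and 0.137 in BCT replicates 1, 2 and 3. The ratio was lower in every BCT sample than in any DMSO sample. Its level depends on the unknown length of APAF1, so it does not show which transcript of the pair was the more abundant, while a length that is the same in all samples cancels in the fold change between groups. The mean ratio went from 1.21 ± 0.0608 to 0.159 ± 0.0273 (SD, n = 3), which is 7.58-fold lower. The ratio of DIABLO to XIAP, antagonist to inhibitor, was 5.03, 4.82 and 4.98 with DMSO and 6.28, 6.62 and 5.65 with BCT. It was higher in each BCT sample, by 1.25-fold on average (4.94 ± 0.109 to 6.18 ± 0.49). The ratio of XIAP plus BIRC2 to CASP9 was 4.97, 5.24 and 4.84 with DMSO and 3.65, 3.53 and 3.54 with BCT. Although both IAP genes had higher values with BCT, the fold change of CASP9 was larger, and the ratio was 1.41-fold lower (5.02 ± 0.202 to 3.57 ± 0.0689). BIRC2, the ubiquitin ligase, made up most of the sum (18.0 FPKM with DMSO and 37.5 FPKM with BCT). The ratio is therefore not a balance between CASP9 and its direct inhibitors. These ratios are descriptions of transcript levels and were not tested.

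**Figure D2:**
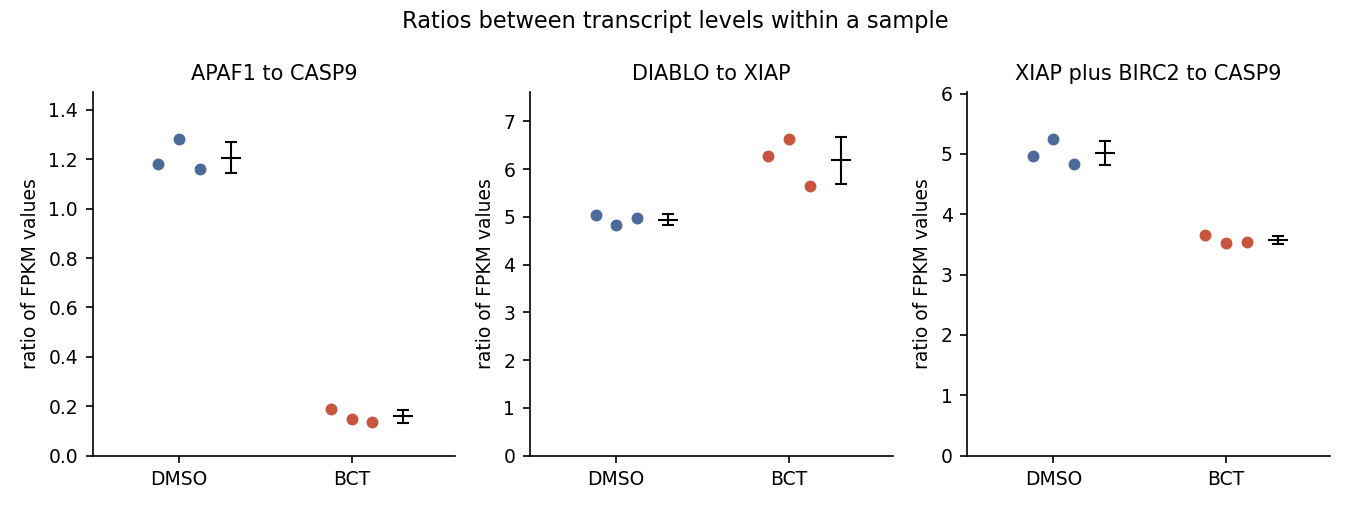
Ratios of FPKM values within each sample (y axes start at 0, blue points for DMSO, red points for BCT), with the mean and SD of 3 samples. APAF1 to CASP9 lies near 1.2 with DMSO and below 0.2 with BCT, DIABLO to XIAP is somewhat higher with BCT, and XIAP plus BIRC2 to CASP9 is lower.

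Around the 8 genes, 52 symbols of the same pathway were listed by role, of which 50 had a row and 40 were tested. Of these 40 genes, 9 were called lower, 4 were called higher and 27 were not called, with a median log2 fold change of -0.10. The 4 called higher include BIRC3, which passed the filter on low values only through its BCT samples. These counts stand beside the backgrounds of 17.8% and 13.9% given above, and they turned with the scaling. With equal sums, 3 were called lower (PTMA, TUBB and LMNB1) and 18 higher, where 668 of all genes were called lower and 5614 higher. With equal sums without the top gene, 4 were called lower and 9 higher.

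Of the other caspases reported here, 1 of 6 was tested and it was not called. CASP8, the initiator of the death receptor route, was at 2.23 ± 0.291 FPKM with DMSO and 3.20 ± 0.153 FPKM with BCT (SD, n = 3, log2 fold change 0.51, limma adjusted p = 0.0028), and it is named after its values were seen. CASP1, CASP4, CASP5, CASP10 and CASP14 had means below 1 FPKM.

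Of the other IAP family genes, 3 of 5 were tested and all of these were called, 2 higher and 1 lower. BIRC3 (cIAP2), which lies beside BIRC2 and is a known NF-kB target, was at 0.335, 0.358 and 0.443 FPKM in DMSO replicates 1, 2 and 3 and at 2.297, 3.756 and 3.4 FPKM in BCT replicates 1, 2 and 3. It was low with DMSO and rose 8.32-fold (log2 fold change 2.74, SE 0.21, limma adjusted p = 5.7e-06), yet its BCT level stayed far under that of BIRC2. With a DMSO mean of 0.379 FPKM, BIRC3 passed the filter of 1 FPKM only through its BCT values. Its place in the count and the median of this list rests on them. BIRC5 (survivin), which also serves in cell division, fell from 88.3 ± 5.78 to 47.3 ± 5.71 FPKM (n = 3, log2 fold change -0.91, limma adjusted p = 2.5e-05), a call that was lost without BCT replicate 3 (-0.82), with quantile normalization and with both scalings to equal sums. BIRC6, a giant ubiquitin ligase, was at 3.90 ± 0.43 and 7.17 ± 0.542 FPKM (n = 3, log2 fold change 0.86, limma adjusted p = 4.6e-05). Its value sat at the threshold, and the call was lost without DMSO replicate 1 (0.79), BCT replicate 2 (0.83) or BCT replicate 3 (0.83), and with median scaling (0.849) and a pseudocount of 1 (0.74). As deposited, BIRC5 was lower and BIRC6 higher. The median log2 fold change of 0.86 over 3 genes is the value of BIRC6 and would differ without BIRC3.

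The genes of other mitochondrial factors that leave the organelle in apoptosis, or that counter IAPs, had 5 of 7 tested, with 2 called lower and none called higher (median -0.54). ENDOG, a mitochondrial nuclease, fell from 96.1 ± 4.87 to 42.7 ± 5.83 FPKM (n = 3, log2 fold change -1.17, limma adjusted p = 6.7e-06). AIFM1, a flavoprotein that acts in caspase-independent death, fell from 81.9 ± 3.16 to 41.7 ± 1.11 FPKM (n = 3, log2 fold change -0.97, limma adjusted p = 1.1e-06). HTRA2, a serine protease that also antagonizes IAPs, was at 15.4 ± 0.646 and 10.8 ± 0.988 FPKM (n = 3, log2 fold change -0.51, limma adjusted p = 2.8e-04). Both calls of this list were lost with equal sums and with equal sums without the top gene.

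Of the genes for cytochrome c maturation and its retention in the cristae, all 5 were tested and 1 was called lower (median 0.32). IMMT, the core of the complex that shapes cristae junctions, fell from 79.1 ± 2.57 to 40.3 ± 1.17 FPKM (n = 3, log2 fold change -0.97, limma adjusted p = 1.0e-06), a call lost with both scalings to equal sums. HCCS, the enzyme that attaches heme to cytochrome c, was at 14.8 ± 0.118 and 22.9 ± 1.37 FPKM (n = 3, log2 fold change 0.63, limma adjusted p = 1.4e-05) and was not called.

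Of 7 genes listed as apoptosome regulators, all tested, 2 were called lower and none higher (median -0.29). PTMA, whose product prothymosin alpha hinders apoptosome formation, fell from 2934 ± 121 to 506.6 ± 85.2 FPKM (n = 3, log2 fold change -2.55, limma adjusted p = 6.0e-07). TUBB is a beta tubulin of the cytoskeleton, and no role of it in the apoptosome is given here. The count and the median of this list include it all the same. TUBB fell from 663.4 ± 11.2 to 155.6 ± 26.2 FPKM (n = 3, log2 fold change -2.10, limma adjusted p = 9.5e-07). Both genes have near-identical copies in the genome, so their levels are uncertain. APIP, named for its binding to APAF1, was at 31.3 ± 1.02 and 19.2 ± 1.16 FPKM (n = 3, log2 fold change -0.71, limma adjusted p = 9.1e-06) and was not called. The rest of the list was not called either. UACA (0.56) and CAAP1 (0.33) had higher values with BCT, ANP32A (-0.29) had lower ones, and the groups overlapped for AVEN (-0.04).

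The platform of CASP2 was represented by PIDD1, CRADD and NPM1, of which 1 was called lower (median -0.68). NPM1, a nucleolar protein that also has near-identical copies, fell from 1238 ± 39.7 to 610.3 ± 25.2 FPKM (n = 3, log2 fold change -1.02, limma adjusted p = 1.1e-06), and its call was lost with quantile normalization (-0.43) and with both scalings to equal sums. PIDD1, which nucleates the PIDDosome, was at 12.6 ± 1.37 and 7.83 ± 0.511 FPKM (n = 3, log2 fold change -0.68, limma adjusted p = 1.3e-04). CRADD, the adaptor that brings in CASP2, was at 20.9 ± 1.76 and 25.2 ± 1.54 FPKM (n = 3, log2 fold change 0.28, limma adjusted p = 0.0091). CASP2 itself was therefore further down than either of these partners, as a comparison of values that was not tested.

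Among 11 caspase substrates of the execution phase, all tested, 2 were called lower and 1 higher (median 0.05). LMNB1, a nuclear lamina protein, fell from 131.9 ± 3.73 to 31.6 ± 6.09 FPKM (n = 3, log2 fold change -2.08, limma adjusted p = 1.4e-06). PARP1, a DNA repair enzyme whose cleavage serves as a marker of apoptosis, fell from 220.6 ± 7.61 to 87.9 ± 10.3 FPKM (n = 3, log2 fold change -1.33, limma adjusted p = 1.9e-06). GSN, which severs actin filaments, rose from 4.31 ± 0.438 to 13.9 ± 0.379 FPKM (n = 3, log2 fold change 1.67, limma adjusted p = 8.5e-07). The calls of LMNB1 and GSN held under both scalings to equal sums and that of PARP1 was lost with equal sums (-0.56).

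Of the partners of XIAP and BIRC2, 5 of 6 were tested and 1 was called higher (median 0.25). MAP3K14 (NIK), the kinase of the non-canonical NF-kB pathway that BIRC2 marks for degradation, rose from 6.001 ± 0.369 to 13.8 ± 1.29 FPKM (n = 3, log2 fold change 1.19, limma adjusted p = 3.1e-06). The transcripts of the ligase and of its substrate were thus both higher with BCT.

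**Figure D3:**
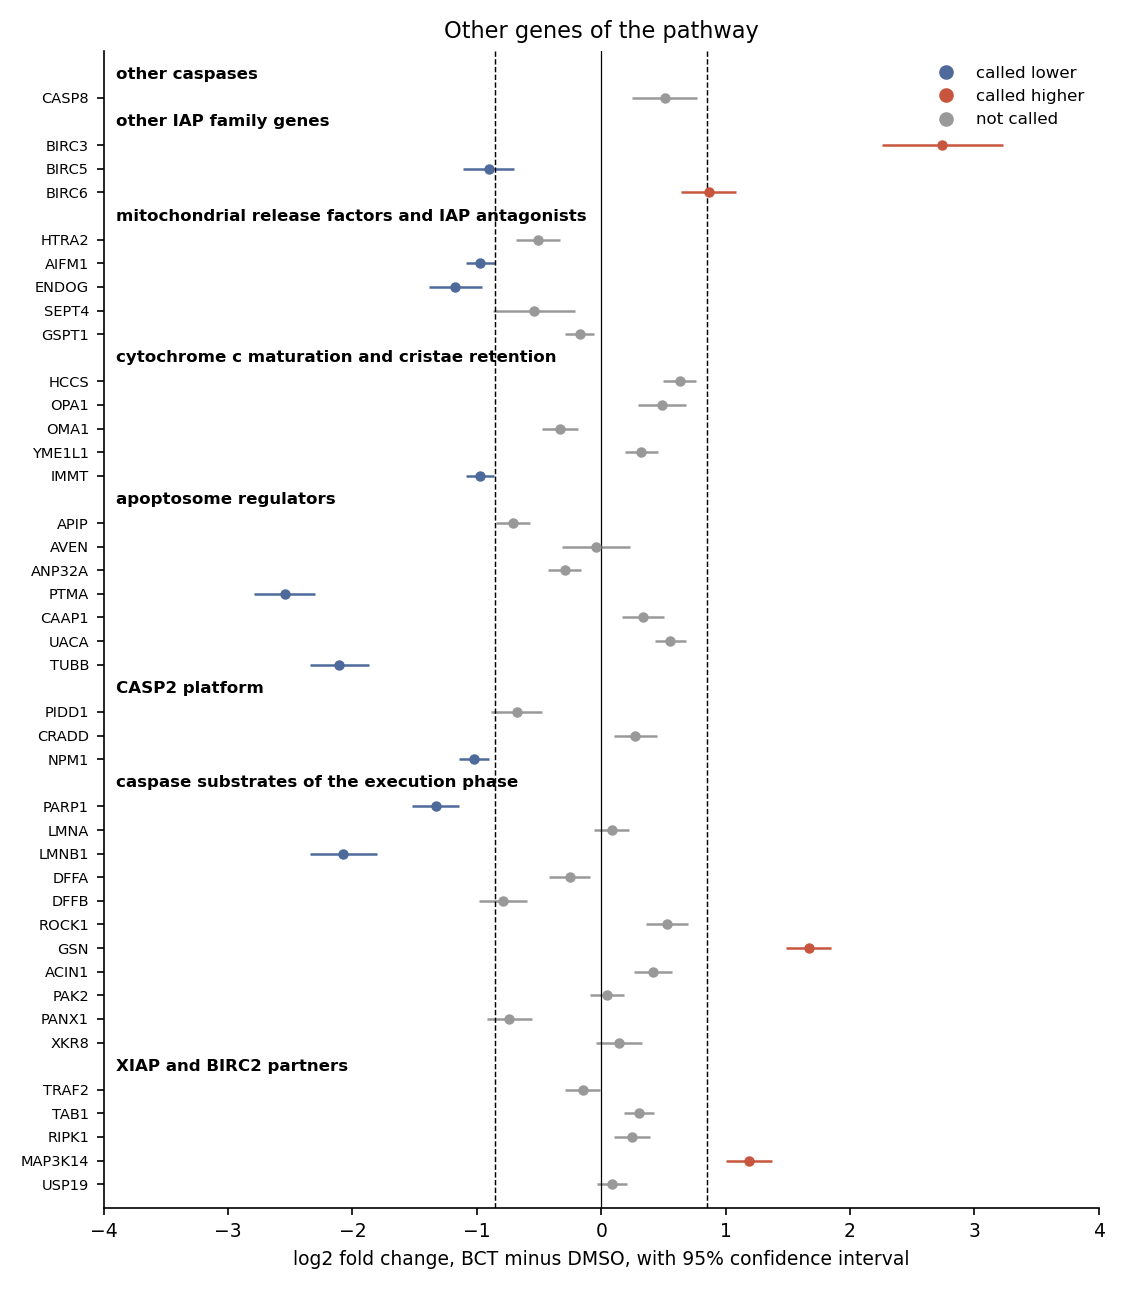
Log2 fold change (BCT minus DMSO) of the 40 other pathway genes tested, grouped by role, with 95% confidence intervals; dashed lines mark the threshold of 0.85, blue points genes called lower, red points genes called higher and gray points genes not called. BIRC3 lies farthest to the right and PTMA farthest to the left, and most of the other genes lie between the dashed lines. TUBB is drawn with the apoptosome regulators as listed, though no role of it there is given.

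The nearest listed genes on either side of the 8 genes, and those that overlap them, were measured in the same samples. IKBIP, which starts 248 bases from APAF1 on the opposite strand, was at 7.08 ± 0.213 FPKM with DMSO and 5.52 ± 0.202 FPKM with BCT (n = 3, log2 fold change -0.35, limma adjusted p = 6.9e-04). It was not called and turned to 0.40 and 0.03 with the scalings to equal sums. TMEM123, 17654 bases from BIRC2, was called lower (log2 fold change -1.36, limma adjusted p = 2.0e-06) while BIRC2 and BIRC3 on its other side were called higher. The call of TMEM123 was lost with equal sums (-0.59). Beside CASP6, CCDC109B (-1.203) and PLA2G12A (-0.99) were called lower. Beside CYCS, OSBPL3 was called lower (-1.03). The calls of CCDC109B, PLA2G12A and OSBPL3 were lost with equal sums (-0.44, -0.23 and -0.28) and with equal sums without the top gene (-0.82, -0.61 and -0.65). Next to CASP9, AGMAT had 1.35 ± 0.074 FPKM with DMSO and 0.525 ± 0.0863 FPKM with BCT (n = 3), too low on average to be tested, and CELA2B was listed at 0. The neighbors THOC2 (0.68) and STAG2 (0.46) of XIAP, VPS33A (0.12) of DIABLO and UHRF1BP1L (0.75) of APAF1 were tested and not called, and TMEM139, CLCN1 and B3GNT4 had means below 1 FPKM. C7orf31, on the other side of CYCS, was at 0.625 ± 0.0735 FPKM with DMSO and 0.401 ± 0.0318 FPKM with BCT (n = 3) and was not tested.

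Genes with the pattern most like each called gene were found by Euclidean distance over the 6 samples, on log2(FPKM + 0.1) minus the DMSO mean. Since samples within a group were close, this distance mainly picks genes of like log2 fold change and shows no link between genes. For APAF1 these were ALDH3B1 (distance 0.0517), PARVB (0.081) and BCL2 (0.0824), the last being the founding anti-apoptotic member of its family. Their log2 fold changes were -1.59, -1.56 and -1.60. For CASP2 they were SYCE1L (0.0736), AGPAT5 (0.0751) and GHR (0.078). For CASP9 they were EPC2 (0.0805), CDC42EP3 (0.0808) and ZNF160 (0.0933). For BIRC2 they were ZNF217 (0.074), CCDC30 (0.0789) and CNST (0.0829).

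**Figure D4:**
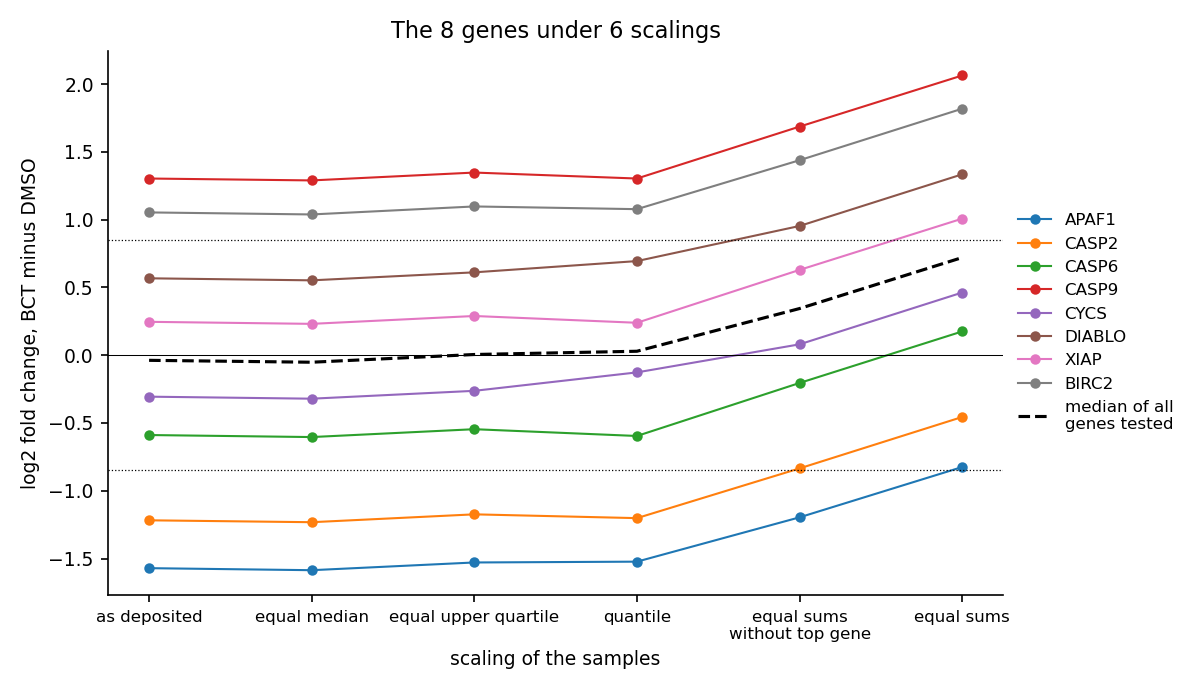
Log2 fold change (BCT minus DMSO) of the 8 genes under 6 scalings of the samples, with the median of all genes tested as a dashed line and the threshold of 0.85 as dotted lines. The lines keep their order and nearly their distances while the whole set moves up with the median under the scalings to equal sums, where CYCS (both) and CASP6 (equal sums) pass above 0. Apart from quantile, 1 factor per sample could hardly change the order.

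The order of the 8 log2 fold changes, from APAF1 through CASP2, CASP6, CYCS, XIAP, DIABLO and BIRC2 up to CASP9, was the same in all 6 scalings shown. Apart from quantile normalization, 1 factor per sample shifts all genes nearly alike, so the order could hardly change there. The scalings to equal sums changed how the genes fell about 0. As deposited, 56.2% of the 4027 genes called were lower, against 10.6% of the genes called with equal sums and 26.4% with equal sums without the top gene. With equal sums, 0 of the 8 genes were called lower and 4 were called higher, with CASP9 and BIRC2 joined by DIABLO and XIAP. CASP9 (1.18 to 2.06) and BIRC2 (1.0 to 1.82) were called higher under every alternative run, and APAF1 was below 0 under each one in which it was tested (-1.63 to -0.83).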

How the data were processed

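RNA-seq was performed on 3 DMSO and 3 BCT samples of 22RV1 cells. The authors trimmed reads with Trimmomatic (0.38, per the labels), aligned them to hg19 with HISAT2 and deposited FPKM values for each sample and gene; the paper's methods name StringTie, the submitters' processing notes list HTSeq, and the gene annotation is not given in the sources used here. FPKM hold no counts, so no count test was run, and their decimals give only the relative depth between samples.

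Values were tested with limma 3.58.1 (R 4.3.3; mean-variance trend, Benjamini-Hochberg adjustment over all genes tested) on log2(FPKM + 0.1) for genes averaging 1 FPKM or more. Groups and replicate numbers came from the labels. The steps were tested on simulated data. Starts of deposited coordinates were raised by 1, since the start plus 1 is a GENCODE transcript start in 7961 of the 22422 genes matched by symbol and the unshifted start is one in 857. Promoter windows came from RefSeq by symbol, matching all 8 genes, on GRCh38.p14; no coordinates were converted.

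The 8 genes, the lists and the tests were chosen with earlier results of these data known. Named genes were the 8 genes, at most 3 called genes per list and direction, the nearest listed gene on either side and overlapping genes, and the 3 genes most like each called gene; uncalled list genes named in the text were chosen after their values were seen. Some genes of the lists and markers are not reported here and were left out of their counts and sums. PIDD and LRDD, older names of PIDD1, had no row. Alternatives covered the pseudocount, the filter, 5 scalings, the variance model, the FDR, limma's treat against the threshold of 0.85, a term for the replicate number and each sample left out.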

Additional observations from a re-analysis of the deposited data

How the results depend on the processing

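The counts of 2 genes called lower and 2 called higher among the 8 held with pseudocounts of 1 and 0.01, without a filter, with upper quartile, median and quantile scaling, without the trend, with a robust fit, at an FDR of 0.01, in a test against the fold change threshold and without each sample in turn. With a filter of 5 FPKM, 1 gene was called lower, because the mean of APAF1 lies under 5. With equal sums, 0 were called lower and 4 higher, and with equal sums without the top gene 1 was called lower (APAF1, with CASP2 at -0.83) and 3 higher. Signs turned with equal sums for CASP6 (0.17), CYCS (0.46), ANKS1B (0.29) and IKBIP (0.40), and with equal sums without the top gene for CYCS (0.08) and IKBIP (0.028). These scalings moved the median of all genes up. Of 159 values of the 8 genes under alternatives, 150 kept direction and call, 3 lost the call, 3 gained one and 3 reversed. Of 476 values of 24 other named genes, 430, 36, 7 and 3 did so. In the test against the threshold, BIRC5, BIRC6, AIFM1, IMMT, LOC101593348, OSBPL3 and PLA2G12A lost their calls, and with a pseudocount of 1 BIRC6 and LOC101593348 did. Over all genes, 4027 were called, against 6282 with equal sums and 2425 in the test against the threshold, and 3822 to 4428 without 1 sample.

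Same-numbered samples correlated at 0.116, 0.0328 and 0.0342 in their deviations from the group means, and the labels give the numbers no further meaning. The replicate block gave 4033 calls and changed no call of the 8 genes. Scalings were not run for the ratios. Scaling by 1 factor per sample cannot change them, but quantile normalization can, and its effect on them was not measured. Without each sample in turn, the log2 ratio of APAF1 to CASP9 changed by -3.07 to -2.83 between groups. These ratio ranges and the counts of pathway genes by scaling were added after the data were seen. No counts are given, so the reads behind low values such as BIRC3 with DMSO are unknown.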
